A study of Mus musculus with 6 samples.

Results

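The genes described here are 10 genes of histone H3 lysine 9 (H3K9) silencing and heterochromatin, found by symbol among the 34199 gene symbols of each count table. They are the H3K9 methyltransferase genes Suv39h1, Suv39h2, Setdb1, Ehmt1 and Ehmt2, the corepressor gene Trim28, the heterochromatin protein 1 (HP1) genes Cbx1, Cbx3 and Cbx5, and the chromatin remodeler gene Hells. All 10 symbols were found and all 10 passed the filter on low counts that left 12460 genes for testing. Expression was measured by RNA-seq in immortalized granulocyte-macrophage progenitors (iGMPs), clonal lines from C57Bl/6 mouse bone marrow. Every line carries a Lys-GFP reporter of myeloid maturation and a fusion of HOXA9 to the estrogen receptor, which holds the cells in self-renewal while estradiol is present. CAF-1 OFF cells were treated for 24 h with 500 µM IPTG, which induces a short hairpin RNA against Chaf1b, a subunit gene of the histone chaperone CAF-1, with estradiol kept at 150 ng/ml. Control cells also received IPTG for 24 h, at a dose the labels do not give, in medium with the same estradiol. HOXA9 OFF cells were washed and grown for 24 h without estradiol. The labels do not say whether HOXA9 OFF cells received IPTG or which vector or clone each library came from. Estradiol may therefore not be the single difference between the HOXA9 OFF and control groups. In the paper, IPTG controls carry a stuffer sequence in place of the hairpin, in separate clones. Clone may therefore differ between CAF-1 OFF and control as well. Each group held 2 libraries, and the labels do not say whether these came from separate cultures or clones. The study mentions independent sub-clones for RNA-seq without tying them to these libraries, so the tests measure the spread between these libraries, which may be technical.

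Methylation of H3K9 is a mark of silent chromatin. SUV39H1 and SUV39H2 place the trimethyl form at repeat-rich pericentric heterochromatin, SETDB1 places it at retroelements and genes to which KRAB zinc finger proteins recruit TRIM28, and EHMT1 and EHMT2 act together to place the dimethyl form at genes in euchromatin. HP1 proteins bind the methylated lysine through a chromodomain and bind the methyltransferases in turn, and the large subunit of CAF-1 binds HP1 as well. The CAF-1 complex deposits new histones H3 and H4 behind replication forks, where the parental marks have to be restored, and HELLS is a SNF2-family remodeler needed for DNA methylation at repeats. The comparisons below ask whether transcripts of this machinery changed within a day of removing CAF-1 or of inactivating HOXA9. They concern messenger RNA, and no histone mark or protein was measured in these libraries.

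Library depth was between 16773560 and 25170898 reads assigned to genes. Levels are given as CPM, read counts scaled to a common library size by TMM factors, on which 3 counts equalled 0.118 to 0.182 CPM. The hairpin target Chaf1b stood at 89.9 and 105 CPM in control and at 17.8 and 12.1 CPM in CAF-1 OFF, a log2 fold change of -2.71 ± 0.20 (SE, edgeR FDR 0.0198). Without CAF-1 OFF replicate 2, control replicate 1 or control replicate 2 the FDR of Chaf1b was 0.0505 to 0.115, with a log2 fold change of -2.44 or lower. In HOXA9 OFF, which carries no stated hairpin induction, Chaf1b stood at 64.6 and 61.3 CPM (log2 fold change -0.63 ± 0.18, edgeR FDR 0.0396). This call was lost without any 1 of the 4 HOXA9 OFF and control libraries. Of 7 markers of the labelled progenitors, 6 were at 262 CPM or more in all 6 libraries, while Flt3 stood at 237 and 329 CPM in control and at 5.01 and 3.45 CPM in HOXA9 OFF. Among lymphoid genes Cd3e, Cd3g and Ncr1 were at 0 throughout, and Cd79a had 37 to 135 counts in a library.

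The promoters of 4 genes are shown, those of Suv39h2 and Cbx1 because these were the members called changed, and those of Hells and Cbx3 because they hold a motif of the E2F type. The windows run from 250 bases before to 50 bases after the start of a RefSeq transcript on GRCm38.p6 and are written 5′ to 3′ on the strand of the gene, with matched motif letters in capitals. Suv39h2 lies on the minus strand at chr2:3474937-3475236, Cbx1 on the plus strand at chr11:96788885-96789184, Hells on the plus strand at chr19:38930740-38931039 and the first of 2 Cbx3 windows on the plus strand at chr6:51470366-51470665.
Suv39h2: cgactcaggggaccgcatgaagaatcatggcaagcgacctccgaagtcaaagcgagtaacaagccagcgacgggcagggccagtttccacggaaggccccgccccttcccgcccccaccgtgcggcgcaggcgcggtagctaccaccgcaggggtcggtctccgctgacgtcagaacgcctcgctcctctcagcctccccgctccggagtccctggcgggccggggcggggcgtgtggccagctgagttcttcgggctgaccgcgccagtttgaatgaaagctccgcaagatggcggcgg
Cbx1: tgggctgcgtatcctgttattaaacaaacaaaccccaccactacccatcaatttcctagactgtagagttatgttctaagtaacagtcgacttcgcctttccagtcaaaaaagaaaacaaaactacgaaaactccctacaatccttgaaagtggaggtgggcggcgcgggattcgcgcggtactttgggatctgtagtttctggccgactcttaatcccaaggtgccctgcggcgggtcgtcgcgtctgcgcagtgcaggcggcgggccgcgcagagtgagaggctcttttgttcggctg
Hells: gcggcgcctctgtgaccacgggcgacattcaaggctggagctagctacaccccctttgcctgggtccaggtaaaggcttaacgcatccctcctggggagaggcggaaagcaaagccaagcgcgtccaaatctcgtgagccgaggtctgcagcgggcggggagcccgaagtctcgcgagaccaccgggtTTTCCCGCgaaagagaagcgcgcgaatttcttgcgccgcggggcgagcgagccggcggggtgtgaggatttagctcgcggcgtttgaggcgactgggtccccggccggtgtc
Cbx3: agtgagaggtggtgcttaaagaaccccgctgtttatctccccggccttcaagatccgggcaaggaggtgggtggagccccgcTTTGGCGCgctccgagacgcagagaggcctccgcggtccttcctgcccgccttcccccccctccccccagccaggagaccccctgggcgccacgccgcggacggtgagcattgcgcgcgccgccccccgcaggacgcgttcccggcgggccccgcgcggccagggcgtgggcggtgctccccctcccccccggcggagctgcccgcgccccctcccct

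Both strands were searched for TTTCCCGC and TTTGGCGC, 2 forms of the E2F motif, and for CCAAT. Hells held TTTCCCGC at position -62, and Cbx3 held TTTGGCGC at position -168, counted from the transcript start. Either form occurs in 1.56% of the 32851 promoter windows of this length. The CCAAT box, which occurs in 37.4% of windows, was found at -120 and -74 in Suv39h1, -249 in Setdb1 and -24 in Cbx5. Each of these lies on the strand opposite the gene, so the strand of the gene reads ATTGG there. No window of Suv39h2, Cbx1, Ehmt1, Ehmt2 or Trim28 held any of the 3 letter strings. GC content was 68.3% in the Suv39h2 window, 65.7% in that of Hells, 75.3% in that of Cbx3 and 52.7% in that of Cbx1. Factor binding at these windows was not measured in the libraries used here.

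In control cells, Trim28 had the highest level per kb of exon, 211 ± 2.6 CPM per kb (SD, n = 2). The HP1 genes Cbx5 (57.7 ± 6.16 CPM per kb) and Cbx1 (50.6 ± 5.2 CPM per kb) came next, and their libraries overlapped. Ehmt2 stood at 34.6 ± 0.571, Hells at 31.7 ± 1.13, Suv39h1 at 24.4 ± 0.287, Setdb1 at 14.8 ± 1.33 and Ehmt1 at 13 ± 0.385 CPM per kb. The 2 lowest genes were Cbx3, at 8.59 ± 0.157, and Suv39h2, at 6.96 ± 0.105 CPM per kb. No other neighbours in this order overlapped between libraries of the control group, although with 2 libraries per group an order without overlap is weak evidence of a difference.

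The order of levels per kb was almost the same in the other groups. In CAF-1 OFF, Hells (35.2 ± 0.515 CPM per kb) stood above Ehmt2 (27.9 ± 0.753). In HOXA9 OFF, Ehmt2 (38.1 ± 0.555 CPM per kb) stood above Cbx1 (30.9 ± 1.8). Trim28 led and Suv39h2 was last in each group. The low value of Cbx3 has a limit, since 48.5% of the 32-base windows in its exons occur elsewhere in the genome. This share was 13.2% for Setdb1, 10.4% for Cbx1 and at most 3.75% for each of the other 7 genes. Reads that align to several places are not counted, so levels of Cbx3 may be an undercount relative to Cbx1 and Cbx5. How many of its reads were lost was not measured, and the same windows are repeated for every library.

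**Figure D1:**
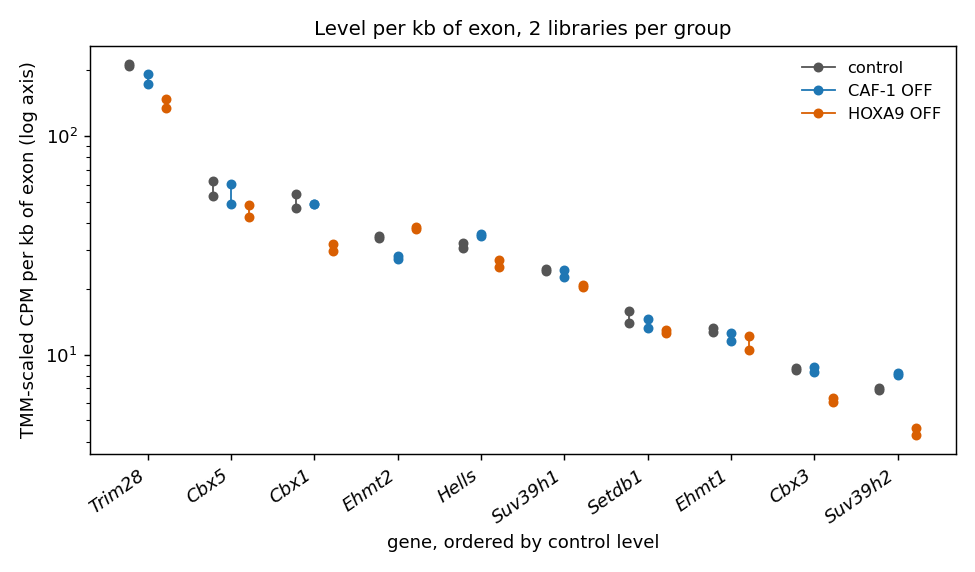
Level of each gene per kb of exon (TMM-scaled CPM per kb, log axis) in the 2 libraries of control (grey), CAF-1 OFF (blue) and HOXA9 OFF (orange), with a line joining the 2 libraries of a group. Trim28 lies highest, at 211 CPM per kb in control, and Suv39h2 lowest, at 6.96 CPM per kb, and the orange points lie below the grey ones for all genes but Ehmt2.

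Summed over the 10 genes, expression was 2358 to 2419 CPM in control. It was 2196 to 2236 CPM in CAF-1 OFF, whereas HOXA9 OFF held 1773 to 1878 CPM. The 3 groups did not overlap in this sum, and Trim28 made up the largest share of it. Trim28 alone stood at 846 and 860 CPM in control and at 775 and 703 CPM in CAF-1 OFF, a difference that did not pass (edgeR FDR 0.534). Gene by gene, CAF-1 OFF lay below control without overlap for 3 of the 10 and above it for 2. The lower sum in CAF-1 OFF is therefore not a fall of the genes as a set.

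None of the 10 genes was called changed in CAF-1 OFF against control, where a call needs a fold change of at least 1.5 and an FDR under 0.05. In that comparison 0.0321% of all tested genes were called, so few that 10 genes would rarely include a called one. At an unadjusted p under 0.05, 1 of the 10 genes, Ehmt2, passed, beside 10.7% of all tested genes, and 0 of the 10 were called by the edgeR exact test, which called 1.95% of all tested genes, or by the DESeq2 Wald test, which called 1.60%. The median log2 fold change of the 10 genes was -0.06, against -0.00 over all tested genes. Fitted changes were lower for 8 genes and higher for 2. Both CAF-1 OFF libraries lay below both control libraries for Ehmt1, Ehmt2 and Trim28, 3 of 10 genes beside 20.0% of all tested genes, and above them for Suv39h2 and Hells, 2 of 10 genes beside 20.1%.

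In HOXA9 OFF against control, Suv39h2 and Cbx1 fell past both limits, 2 of 10 genes. In this comparison 2740 of the 12460 tested genes were called, 8.97% lower and 13.0% higher, so the share of members called is near that of all genes. With the FDR limit alone, Trim28 and Cbx3 were lower as well, which makes 4 of 10 genes beside 13.8% of all tested genes. That count was 1 without control replicate 2 (4.70% of all genes) or HOXA9 OFF replicate 2 (6.26%), and 3 or 4 without any other library. Both HOXA9 OFF libraries lay below both control libraries for 9 of 10 genes, where 35.9% of all tested genes did so, and Ehmt2 lay above. The median log2 fold change was -0.31 for the 10 genes and -0.00 for all tested genes. The count of called genes was 1 without control replicate 2 and 1 without HOXA9 OFF replicate 2, fits in which calls over all genes also dropped, to 1602 and 2022.

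Compared directly, CAF-1 OFF was higher than HOXA9 OFF for Suv39h2 and Cbx1, 2 of 10 genes called beside 9.56% of all tested genes. With the FDR limit alone 5 genes were higher in CAF-1 OFF (Suv39h2, Trim28, Cbx1, Cbx3 and Hells) beside 14.3% of all tested genes. That count was 1 without HOXA9 OFF replicate 1 (5.19% of all genes), 2 without HOXA9 OFF replicate 2 (6.23%), 3 without CAF-1 OFF replicate 1 (8.96%) or either control library (10.8% and 10.9%), and 5 without CAF-1 OFF replicate 2. By the same limit Ehmt2 was lower, 1 of 10 genes beside 15.9%. Both CAF-1 OFF libraries lay above both HOXA9 OFF libraries for 8 of 10 genes, where 33.0% of all tested genes did so. The median log2 difference was 0.32 for the 10 genes and 0.00 for all tested genes. This comparison shares its HOXA9 OFF libraries with the one against control, so the 2 sets of values are not independent. In bulk RNA a lower level in each cell and fewer cells that express the gene cannot be told apart.

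**Figure D2:**
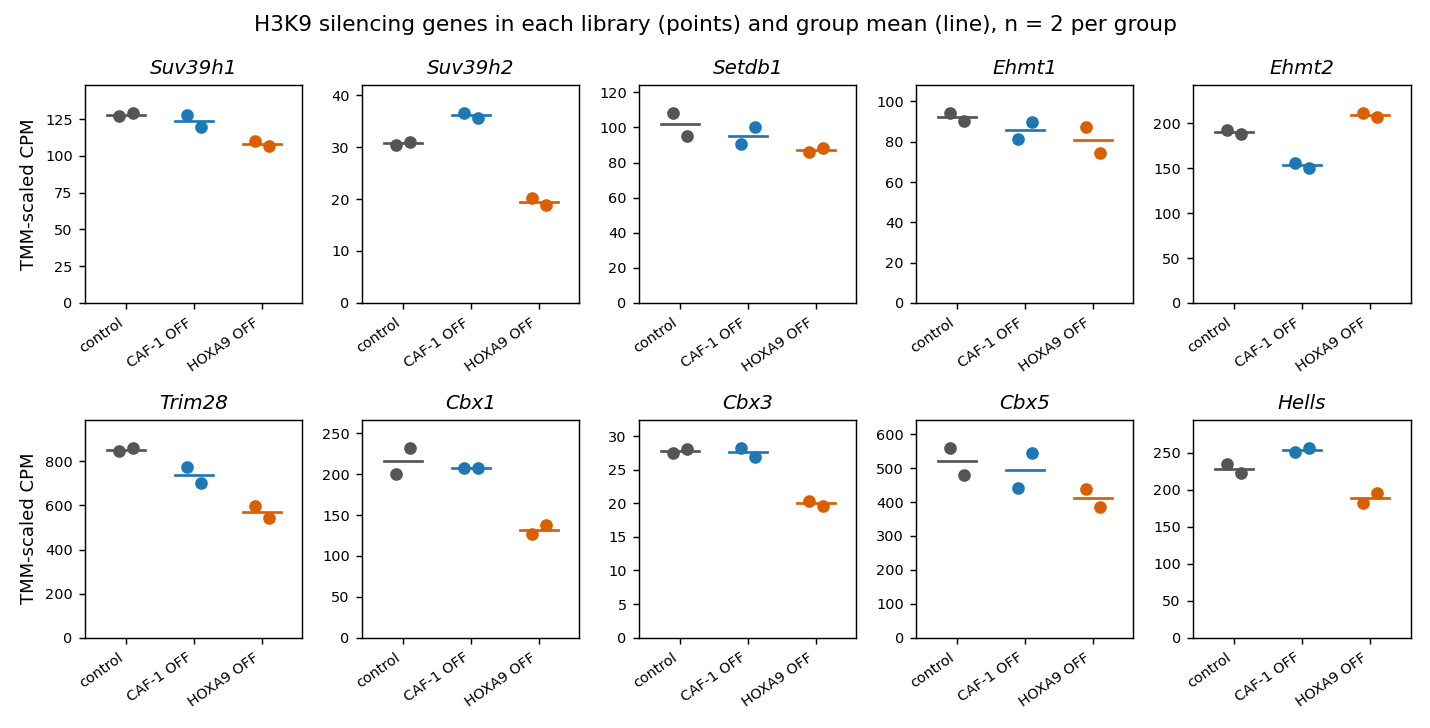
TMM-scaled CPM of the 10 genes in each of the 6 libraries (points) with the group mean (line), 1 panel per gene with an axis from 0. Suv39h2 stands at 30.4 and 31 CPM in control and at 20.3 and 18.8 CPM in HOXA9 OFF, while the control and CAF-1 OFF points of Setdb1 and Cbx5 overlap.

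**Figure D3:**
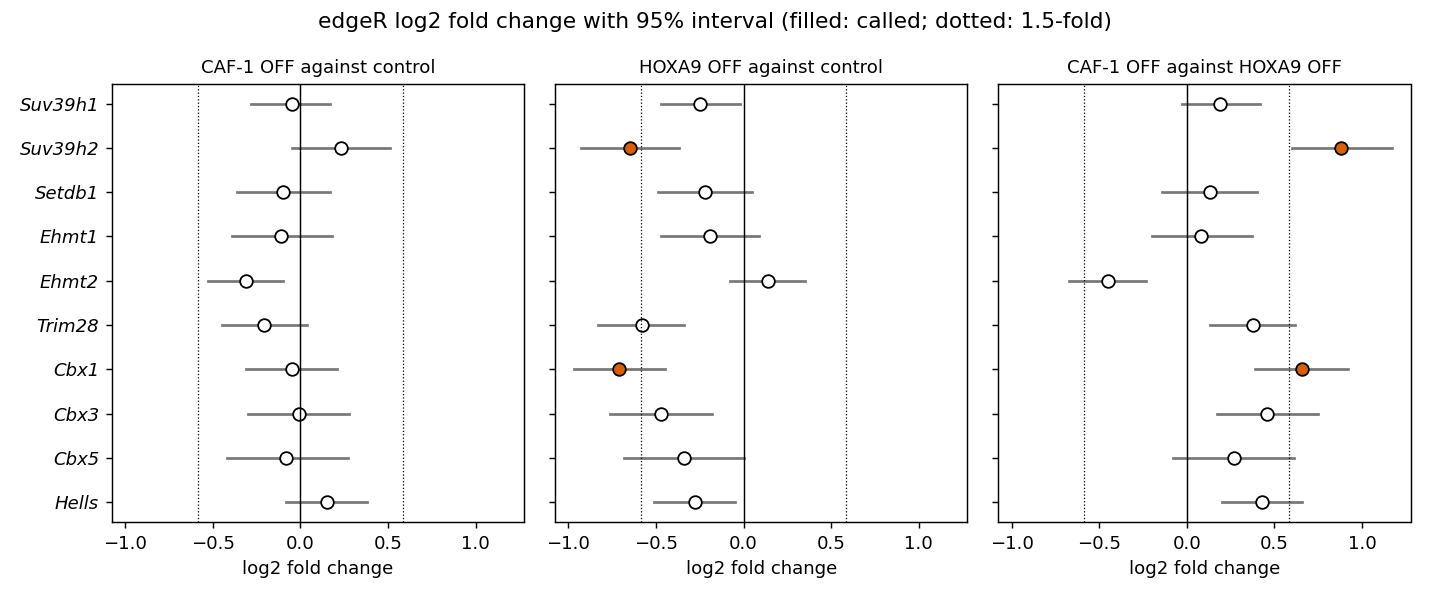
log2 fold change of the 10 genes with its 95% interval from the edgeR quasi-likelihood fit, in 1 panel for each of the 3 comparisons. Filled points are called genes and dotted lines mark 1.5-fold, and the called points are Suv39h2 and Cbx1, at -0.65 and -0.71 in HOXA9 OFF against control.

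Among the writers, the pair of SUV39 genes differed in how they varied. Suv39h2 (NCBIM37 chr2:3373087-3392303, minus strand) stood at 30.4 and 31 CPM in control, 36.5 and 35.7 CPM in CAF-1 OFF, and 20.3 and 18.8 CPM in HOXA9 OFF. The 3 groups did not overlap, with CAF-1 OFF highest and HOXA9 OFF lowest. HOXA9 OFF was 1.57-fold lower than control (log2 fold change -0.65 ± 0.12, 95% interval -0.93 to -0.37, edgeR FDR 0.00871). CAF-1 OFF was 1.85-fold higher than HOXA9 OFF (log2 0.88 ± 0.12, 95% interval 0.60 to 1.17, edgeR FDR 0.00322). The difference between CAF-1 OFF and control did not pass (log2 0.23 ± 0.12, interval -0.05 to 0.51, edgeR FDR 0.539). The lower level in HOXA9 OFF against control had an FDR of 0.0617 without control replicate 2 and 0.0618 without HOXA9 OFF replicate 2, with log2 fold changes of -0.64 and -0.60.

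Suv39h1 (chrX:7638297-7651886, minus strand) varied less. It stood at 127 and 129 CPM in control, 128 and 120 CPM in CAF-1 OFF, and 110 and 107 CPM in HOXA9 OFF. CAF-1 OFF overlapped control (log2 -0.05 ± 0.10, 95% interval -0.28 to 0.17, edgeR FDR 0.889), an interval that leaves no room for a 1.5-fold change. Both HOXA9 OFF libraries were below control, by a log2 fold change of -0.25 ± 0.10 that missed the limit (edgeR FDR 0.0962). The ratio of Suv39h1 to Suv39h2 per kb was 3.51 and 3.49 in the control libraries, 2.93 and 2.8 in CAF-1 OFF, and 4.54 and 4.74 in HOXA9 OFF. The balance of the 2 transcripts thus took 3 separate ranges, with the share of Suv39h2 largest in CAF-1 OFF, although no test was run on the ratio.

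Setdb1 (chr3:95127447-95161124, minus strand), the methyltransferase recruited through TRIM28, stood at 108 and 95.3 CPM in control, 90.3 and 100 CPM in CAF-1 OFF, and 86 and 88.5 CPM in HOXA9 OFF. Control and CAF-1 OFF overlapped, and HOXA9 OFF lay below both. Neither difference from control passed (CAF-1 OFF log2 -0.10 ± 0.11, edgeR FDR 0.807, and HOXA9 OFF log2 -0.22 ± 0.11, edgeR FDR 0.184).

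Trim28 (chr7:13609501-13616384, plus strand), the corepressor that bridges KRAB zinc finger proteins to SETDB1 and HP1, stood at 846 and 860 CPM in control, 775 and 703 CPM in CAF-1 OFF, and 598 and 541 CPM in HOXA9 OFF. The groups formed 3 separate ranges in that order. In HOXA9 OFF the log2 fold change was -0.58 ± 0.10 (edgeR FDR 0.00751), which passed the FDR limit and missed the fold limit, a log2 value of 0.5850, in the third decimal. It was called without CAF-1 OFF replicate 1, CAF-1 OFF replicate 2, control replicate 1 or HOXA9 OFF replicate 1, with log2 fold changes from -0.66 to -0.59, and not called without control replicate 2 (edgeR FDR 0.0558) or HOXA9 OFF replicate 2 (edgeR FDR 0.0574). Against control, CAF-1 OFF was at a log2 fold change of -0.21 ± 0.10 (edgeR FDR 0.534). Directly compared, CAF-1 OFF lay above HOXA9 OFF by 0.38 ± 0.10 on the log2 scale (edgeR FDR 0.0335), under the fold limit, and this pass was lost in the fit to 4 libraries (edgeR FDR 0.0615) and without any 1 library other than CAF-1 OFF replicate 2 (0.0666 to 0.194).

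Of the pair that methylates H3K9 in euchromatin, Ehmt2 was the single member with its highest level in HOXA9 OFF. Ehmt2 (chr17:35035414-35050997, plus strand) stood at 192 and 188 CPM in control, 156 and 150 CPM in CAF-1 OFF, and 211 and 207 CPM in HOXA9 OFF. No group overlapped another, with CAF-1 OFF lowest and HOXA9 OFF highest, the reverse of Suv39h2. CAF-1 OFF was at a log2 fold change of -0.31 ± 0.09 from control (95% interval -0.53 to -0.10), with an unadjusted p of 0.0116 from the edgeR fit and an FDR of 0.321. HOXA9 OFF was at 0.14 ± 0.09 (95% interval -0.08 to 0.35, edgeR FDR 0.297). Between CAF-1 OFF and HOXA9 OFF the log2 difference of -0.45 ± 0.09 passed the FDR limit (edgeR FDR 0.013) and not the fold limit, and the pass was lost without HOXA9 OFF replicate 1 (edgeR FDR 0.0944) or replicate 2 (0.0704).

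Ehmt1 (chr2:24646289-24775129, minus strand) stood at 94.1 and 90.3 CPM in control, 81.5 and 89.9 CPM in CAF-1 OFF, and 87.1 and 74.5 CPM in HOXA9 OFF. CAF-1 OFF and HOXA9 OFF overlapped, and neither passed against control (log2 -0.11 ± 0.12, edgeR FDR 0.794, and log2 -0.19 ± 0.12, edgeR FDR 0.27). The ratio of Ehmt2 to Ehmt1 per kb was 2.65 and 2.7 in control, 2.48 and 2.17 in CAF-1 OFF and 3.15 and 3.6 in HOXA9 OFF, again without overlap between groups and without a test.

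The HP1 genes encode the readers of the mark. Cbx1 (HP1 beta, chr11:96650441-96669954, plus strand) stood at 200 and 232 CPM in control, 208 in both CAF-1 OFF libraries, and 127 and 138 CPM in HOXA9 OFF. CAF-1 OFF lay within the range of control, and both HOXA9 OFF libraries were far below it. HOXA9 OFF was 1.64-fold lower than control (log2 -0.71 ± 0.11, 95% interval -0.97 to -0.45, edgeR FDR 0.00499), and CAF-1 OFF was 1.58-fold higher than HOXA9 OFF (log2 0.66 ± 0.11, edgeR FDR 0.00684). The direct difference had an FDR of 0.0543 without HOXA9 OFF replicate 1, at a log2 value of 0.61. CAF-1 OFF against control gave a log2 fold change of -0.05 ± 0.11 (edgeR FDR 0.905).

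Cbx3 (HP1 gamma, chr6:51420359-51433703, plus strand), the HP1 protein that is also found along active genes, stood at 27.4 and 28.1 CPM in control, 28.2 and 26.9 CPM in CAF-1 OFF, and 20.3 and 19.6 CPM in HOXA9 OFF. CAF-1 OFF enclosed control, while HOXA9 OFF lay below both. In HOXA9 OFF the log2 fold change of -0.47 ± 0.12 passed the FDR limit alone (edgeR FDR 0.0286), and the direct difference of CAF-1 OFF from HOXA9 OFF was 0.46 ± 0.12 (edgeR FDR 0.0308). The first pass was lost without any 1 of the 4 control and HOXA9 OFF libraries (edgeR FDR 0.107 to 0.15) and with no filter (0.0538), and the direct one with no filter (0.0665), in the fit to 4 libraries (0.0588) and without any 1 library other than CAF-1 OFF replicate 2 (0.0623 to 0.149). These values rest on the part of the transcript that reads can place, and 1 annotated pseudogene carries its name.

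Cbx5 (HP1 alpha, chr15:103021975-103070247, minus strand), the HP1 protein most closely tied to constitutive heterochromatin, stood at 559 and 481 CPM in control, 441 and 546 CPM in CAF-1 OFF, and 437 and 384 CPM in HOXA9 OFF. CAF-1 OFF overlapped control (log2 -0.08 ± 0.14, 95% interval -0.42 to 0.27, edgeR FDR 0.898), and HOXA9 OFF lay below control by -0.34 ± 0.14 (edgeR FDR 0.12). The ratio of Cbx1 to Cbx5 per kb was 0.756 and 1.02 in control, 0.996 and 0.805 in CAF-1 OFF and 0.611 and 0.754 in HOXA9 OFF. Control and CAF-1 OFF overlapped in this ratio.

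Hells (chr19:39005405-39045541, plus strand), the remodeler, stood at 234 and 223 CPM in control, 251 and 256 CPM in CAF-1 OFF, and 182 and 195 CPM in HOXA9 OFF. As with Suv39h2, the groups did not overlap, with CAF-1 OFF highest and HOXA9 OFF lowest. Neither difference from control passed (CAF-1 OFF log2 0.15 ± 0.10, edgeR FDR 0.63, and HOXA9 OFF log2 -0.28 ± 0.10, edgeR FDR 0.0686). The direct difference between CAF-1 OFF and HOXA9 OFF, 0.43 ± 0.10 on the log2 scale, passed the FDR limit and not the fold limit (edgeR FDR 0.0172), and the pass was lost without HOXA9 OFF replicate 1 (edgeR FDR 0.118) or replicate 2 (0.0706).

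Some of these genes share exonic sequence or a promoter region with a neighbour, which matters where the strand setting of the counting is not stated. Suv39h2 shares 357 exonic bases with Dclre1c, a DNA repair nuclease gene on the opposite strand. Dclre1c stood at 13.5 CPM in both control libraries, 10.5 and 15.2 CPM in CAF-1 OFF, and 19.2 and 23 CPM in HOXA9 OFF, so it was highest where Suv39h2 was lowest. Dclre1c did not pass in HOXA9 OFF against control (log2 0.64 ± 0.21, edgeR FDR 0.0628), and in the direct comparison it was called lower in CAF-1 OFF (log2 -0.71 ± 0.21, edgeR FDR 0.0454). Suv39h2 also shares 83 bases with Gm13184, which had at most 2 counts in a library. Setdb1 shares 64 bases with Lass2, a ceramide synthase gene that stood at a log2 fold change of -0.30 ± 0.10 in HOXA9 OFF (edgeR FDR 0.0593), and Suv39h1 shares 596 bases with Gm14820, which had at most 1 count.

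Of the genes that start within 1 kb on the other strand, Hnrnpa2b1, a splicing factor gene whose start lies 466 bases from that of Cbx3, stood at group means of 2135 CPM (control), 2158 CPM (CAF-1 OFF) and 1992 CPM (HOXA9 OFF). Its log2 fold change in HOXA9 OFF was -0.10 ± 0.09 (edgeR FDR 0.452), beside -0.47 for Cbx3. Hnrnpa1, 698 bases from the start of Cbx5, was at means of 15.3, 13.7 and 13.2 CPM in control, CAF-1 OFF and HOXA9 OFF (HOXA9 OFF log2 -0.21 ± 0.23, edgeR FDR 0.53). The complement gene C2, which starts 17 bases from Ehmt2, had between 4 and 19 counts in a library. Cbx1 encloses the pseudogene Gm11517 without exonic overlap, and that gene had between 3 and 12 counts.

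The wider pathway was described with 5 lists of 47 genes, of which 43 were tested. In CAF-1 OFF against control 0 of the 43 were called, by edgeR or by DESeq2. In HOXA9 OFF against control 3 rose and 1 fell, where 13.0% and 8.97% of all tested genes did so, and the median log2 fold change of the 43 genes was 0.02. In CAF-1 OFF against HOXA9 OFF 2 were called higher and 6 lower, where 9.56% and 12.6% of all tested genes were. These shares are near or below the background.

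Among the H3K9 demethylases, which remove the mark, 2 of 10 tested rose in HOXA9 OFF, beside 13.0% of all tested genes, and the median log2 fold change was 0.19. Kdm1a passed the FDR limit alone in the other direction (log2 -0.42, edgeR FDR 0.0472). Jhdm1d, the older symbol of Kdm7a, rose from control levels of 7.81 and 8.18 CPM to 36.3 and 31.2 CPM in HOXA9 OFF, with 4.62 and 7.79 CPM in CAF-1 OFF (HOXA9 OFF log2 2.08 ± 0.25, edgeR FDR 0.00221). Phf8, a related JmjC demethylase gene, rose from control levels of 44.3 and 40.4 CPM to 66.1 and 74.8 CPM in HOXA9 OFF (log2 0.73, edgeR FDR 0.00715, and 0.0547 without control replicate 2). Both were called lower in CAF-1 OFF in the direct comparison, at log2 -2.44 for Jhdm1d (edgeR FDR 0.00156) and -0.77 for Phf8 (edgeR FDR 0.00646). In CAF-1 OFF against control the fitted value was negative for 10 of the 10 tested demethylase genes, and 0 were called. Their median was -0.15, beside -0.00 over all tested genes, and the values ran from -0.44 to -0.00.

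Among 10 tested partners of the methyltransferases, Prdm2, a PR-domain gene, rose in HOXA9 OFF from 27.3 and 21.6 CPM to 55.8 and 52.2 CPM, with 19.8 and 33.8 CPM in CAF-1 OFF (log2 1.14, edgeR FDR 0.0163). The call was lost without HOXA9 OFF replicate 1 (edgeR FDR 0.0662) and without control replicate 2 (edgeR FDR 0.0889). In the direct comparison Prdm2 (log2 -1.01), Setdb2 (-0.76), a putative H3K9 methyltransferase gene, and Mbd1 (-0.65), a methyl-CpG binding partner of SETDB1, were lower in CAF-1 OFF, at edgeR FDR of 0.0245, 0.0168 and 0.00774. Each of these direct calls was lost without HOXA9 OFF replicate 1 (edgeR FDR 0.0932, 0.0954 and 0.0556), and those of Prdm2 and Setdb2 also without HOXA9 OFF replicate 2 (edgeR FDR 0.0672 and 0.0618). Setdb2 was lost without CAF-1 OFF replicate 1 too (edgeR FDR 0.0657).

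Among 15 readers and structural genes, Cdca7 fell in HOXA9 OFF. CDCA7 binds HELLS and is required for its remodeling activity. Cdca7 stood at 266 and 256 CPM in control, 253 and 233 CPM in CAF-1 OFF, and 129 and 109 CPM in HOXA9 OFF (log2 -1.14 ± 0.12, edgeR FDR 0.00138, called in 6 of 6 fits without 1 library). Directly compared, it was called higher in CAF-1 OFF (log2 1.03, edgeR FDR 0.00188), while Hells itself was under the fold limit in both comparisons. Bahd1, a heterochromatin scaffold gene, was lower in CAF-1 OFF in the direct comparison (log2 -0.60, edgeR FDR 0.0155), a call lost without CAF-1 OFF replicate 2 (log2 -0.44), HOXA9 OFF replicate 1 (edgeR FDR 0.0835) or HOXA9 OFF replicate 2 (edgeR FDR 0.0707).

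Of the 5 tested genes of the HUSH complex, which spreads the mark over retroelements and transgenes, and of the MORC ATPases that work with it, 0 were called in HOXA9 OFF against control (1 passed the FDR limit alone). Mphosph8, the HUSH subunit that reads H3K9 methylation, stood at 60.2 and 74.8 CPM in control, 84 and 77.8 CPM in CAF-1 OFF, and 49.3 and 48.4 CPM in HOXA9 OFF, and the direct comparison called it higher in CAF-1 OFF (log2 0.73, edgeR FDR 0.00893). That call was lost without HOXA9 OFF replicate 1 (edgeR FDR 0.0518) or replicate 2 (edgeR FDR 0.0533). Of 4 KRAB zinc finger genes known to recruit TRIM28, 3 were tested and 0 were called in any of the 3 comparisons.

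**Figure D4:**
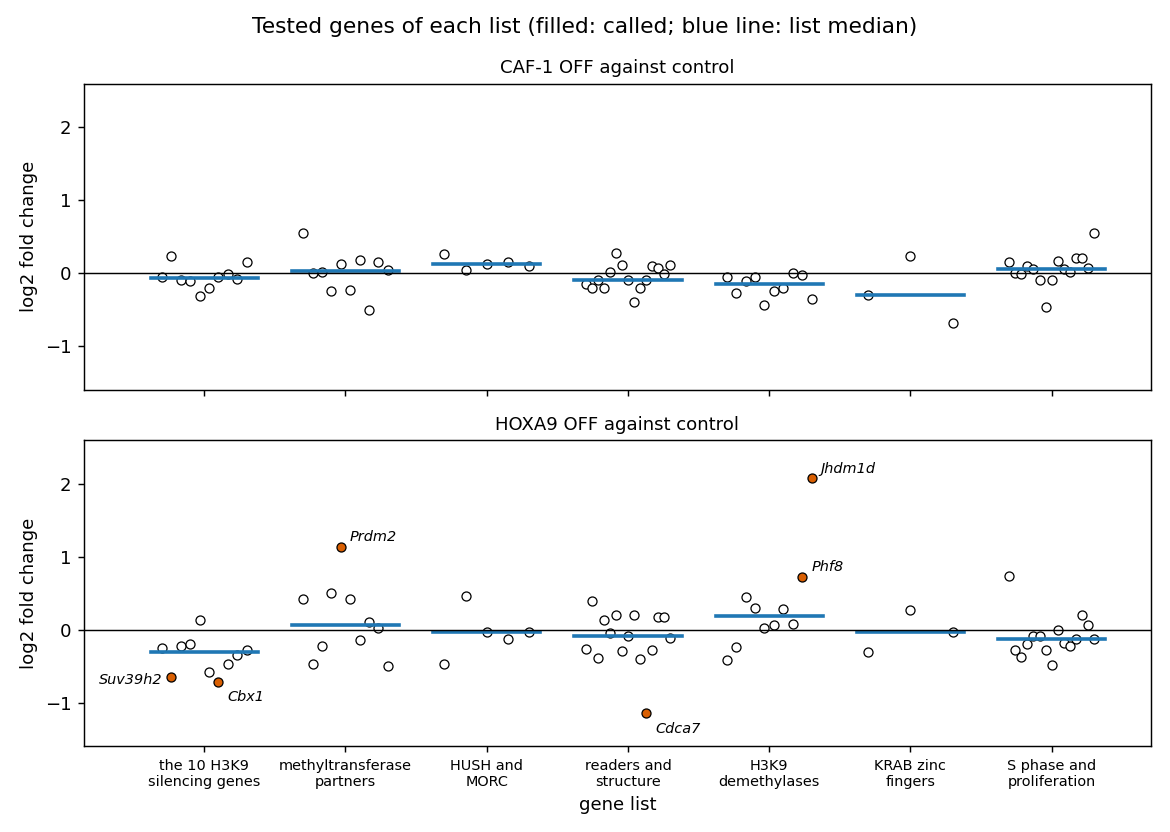
log2 fold change of every tested gene of each list in CAF-1 OFF against control (upper panel) and HOXA9 OFF against control (lower panel), with called genes filled and named and the median of each list as a blue line. No point is filled in the upper panel, and in the lower panel the median of the 10 H3K9 silencing genes is -0.31 while that of the demethylases is 0.19.

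Germline genes, which are silenced in somatic cells, and genes of the 2-cell embryo were also looked at. No histone mark was measured at them, so their counts are not a readout of H3K9 methylation. Of 12 germline genes, 1 was tested, Tex101, and 5 were at 0 in all 6 libraries (Mael, Tdrd1, Sycp1, Tex11 and Magea2). Their summed level was 0.942 to 2.67 CPM (control), 0.935 to 1.27 CPM (CAF-1 OFF) and 0.727 to 0.916 CPM (HOXA9 OFF), and no gene of the list was called. Tex101, the one germline gene with at least 10 counts in both libraries of a group, had 13 counts in each control library, 7 and 14 in CAF-1 OFF, and 10 and 3 in HOXA9 OFF. Of the genes of the 2-cell embryo, Zscan4c, Zscan4d, Zscan4f and Dub1 had 0 counts in every library. At these depths a count of 0 allows a level of up to 0.118 to 0.182 CPM, and less is known for gene families with near-identical copies, because reads that align to several places are not counted. Retroelements were not analysed here.

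Several other measures were set beside the lower levels in HOXA9 OFF, and not all of them differed between the groups. The 15 S-phase and proliferation genes summed to 6025 to 6846 CPM (control), 6248 to 6832 CPM (CAF-1 OFF) and 5592 to 6275 CPM (HOXA9 OFF), so the groups overlapped. In HOXA9 OFF against control 12 of these 15 genes had a negative fitted change and 0 were called. The median was -0.12, beside -0.31 for the 10 silencing genes. By the FDR limit alone 2 passed (Mcm2, log2 -0.37, edgeR FDR 0.0232, and Mcm7, log2 -0.48, edgeR FDR 0.0085). The other 3 fitted changes were positive, for Mki67 (log2 0.74, edgeR FDR 0.0673), E2f1 (0.20) and Dnmt1 (0.06). Mki67, the largest change of the list, stood at 323 and 239 CPM in control and at 493 and 446 CPM in HOXA9 OFF. Of 7 progenitor markers 4 fell, led by Flt3 (log2 -6.05), Cd34 (-1.86) and Kit (-1.16), with edgeR FDR of 0.000102, 0.000482 and 0.00366. The other 3 had positive fitted changes that were not called. These were Elane (log2 0.76), Prtn3 (0.59) and Mpo (0.53), at edgeR FDR of 0.131, 0.061 and 0.112. Of 8 mature neutrophil markers 7 rose, led by S100a8 (log2 6.55), S100a9 (6.38) and Camp (6.25), with edgeR FDR of 0.000322, 0.000433 and 0.000561. Of 6 monocyte and macrophage markers 4 rose and 1 fell, with Cybb (log2 7.46), Csf1r (5.94) and Cd68 (2.45) highest, at edgeR FDR of 0.000893, 0.000103 and 0.00386. Of 5 tested megakaryocyte and erythroid markers Gata1 (log2 1.81, edgeR FDR 0.0252) and Itga2b (1.80, edgeR FDR 0.00847) rose. The part of these shifts in the levels of the silencing genes was not tested.

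In CAF-1 OFF against control 0 genes of these marker and S-phase lists were called. Summed neutrophil markers were nevertheless at 434 to 697 CPM in CAF-1 OFF beside 100 to 108 CPM in control, and 8 of 8 had a positive fitted change (median log2 1.55). Most of that sum was Mmp8, a neutrophil collagenase gene at 332 and 630 CPM in CAF-1 OFF and 70.1 and 40.4 CPM in control, and the other 7 genes summed to 102 and 66.8 CPM in CAF-1 OFF beside 38.1 and 59.8 CPM in control. Mmp8 did not pass in CAF-1 OFF against control (log2 3.12, edgeR FDR 0.0757). In these same libraries the fitted changes of the silencing genes lay between -0.31 for Ehmt2 and 0.23 for Suv39h2.

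Suv39h2 had the widest range of its group means, 0.88 on the log2 CPM scale. Over the 6 libraries and 8762 tested genes with a mean of at least 10 CPM, genes whose log2 CPM followed it closely were Ptk7 (Pearson r 0.9990), Kdelc1 (0.9974), Klhdc4 (0.9956) and Asrgl1 (0.9956). Their log2 fold changes in HOXA9 OFF against control were -1.32, -1.05, -0.20 and -0.56. With 6 points in 3 groups the highest of 8762 correlations is bound to be high, and these values are a description.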

How the data were processed

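Total RNA was sequenced by the authors in 6 libraries (3 groups of 2) with a strand-specific NEBNext kit, aligned with STAR to mouse mm9, and counted with HTSeq-count. The deposited values are raw read counts per gene symbol, 34199 symbols and 5 tally lines per library, which were kept out of library sizes and tests. Reads in no gene came to 5.95 to 8.26, ambiguous reads to 3 to 3.28 and reads aligned to several places to 89.6 to 107 per 100 gene reads. The annotation and strand setting of the counting are not given in the sources used here. Library depth was 16773560 to 25170898 gene counts. Limits from counts of 0 (3 counts) cover counting error only, since PCR copies are not independent molecules.

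Groups and replicate numbers come from the sample titles. Counts were scaled by TMM (factors 0.954 to 1.03) and filtered with filterByExpr in edgeR 4.0.16 (R 4.3.3, limma 3.58.1). The quasi-likelihood model was fitted over all 6 libraries with group as the only term, and each of 3 comparisons was tested with Benjamini-Hochberg adjustment over 12460 genes. A call needed a fold change of at least 1.5 and an FDR under 0.05, the cutoffs of the study. SE comes from the quasi-likelihood F statistic, 95% intervals from its t distribution, and SD covers 2 libraries.

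Alternatives were DESeq2 size factors, library size alone, no filter, a mean CPM of at least 5, a replicate block, the 4 libraries compared, the edgeR exact test, the DESeq2 Wald test (version 1.42.0), other cutoffs, and leaving out 1 library at a time. These last fits leave 1 in a group, which is assumed to vary like the others. A crossed replicate block was added after the data were seen. Libraries of a group differed by more than sampling noise (chi-square 20.5 to 27.6 per degree of freedom).

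All 10 genes are named. In each comparison the text also names called genes of the pathway lists (at most the 8 largest), germline genes with at least 10 counts in both libraries of a group, at most 3 called genes per marker list, genes that overlap a member or start within 1 kb of it, and the 5 genes most correlated with the member of widest range. Some results under this rule are not reported here. The lymphoid genes quoted as a check of cell type were chosen after their values were seen. So were Mmp8, Kdm1a, Mcm2, Mcm7, Mki67, E2f1, Dnmt1, Elane, Prtn3 and Mpo. The genes and lists were chosen with earlier results of these data known. Of the listed symbols 3 were matched by an older name and 2 (Tcstv1 and Tcstv3) were not matched.

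Gene coordinates and exon lengths are from GENCODE on NCBIM37, the assembly that mm9 names, and promoter windows are from RefSeq on GRCm38.p6, which held windows for all 10 genes. The count tables hold no coordinates.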

Additional observations from a re-analysis of the deposited data

Results flagged for a closer look

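Reads that fell in no annotated gene, a tally outside the gene counts, came to 7.84 and 8.26 per 100 gene-assigned reads in HOXA9 OFF, above both control libraries (6.87 and 7.15), while CAF-1 OFF stood at 5.95 and 7.3. The difference was not tested.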

How the results depend on the processing

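Of 430 fold changes of the 10 genes under alternatives, 410 kept their direction and their side of the threshold. The genes called in HOXA9 OFF against control numbered 2 (2740 over all genes), and 0 at 2-fold and an FDR under 0.01 (987), 4 with no fold minimum (3716), and 1 to 3 without 1 library (1602 to 2840). In CAF-1 OFF against HOXA9 OFF they numbered 2 (2755 over all genes), and 0 at the stricter cutoffs (948), 6 with no fold minimum (3770), and 1 to 2 without 1 library (1711 to 2718). In CAF-1 OFF against control they numbered 0 under every alternative run. Fitted values near 0 changed sign without 1 library, from -0.11 to 0.012 for Suv39h1, -0.17 to 0.00283 for Setdb1, -0.15 to 0.065 for Cbx1, -0.0456 to 0.0415 for Cbx3 and -0.22 to 0.0669 for Cbx5 in CAF-1 OFF against control, and from -0.0248 to 0.21 for Ehmt1 in CAF-1 OFF against HOXA9 OFF. Cbx3 in CAF-1 OFF against control was also 0.00313 with a mean CPM of at least 5. Trim28 in HOXA9 OFF against control, just under the fold minimum, was called in 8 alternatives that keep the cutoffs, among them library size alone (log2 -0.66), and with no fold minimum. The cause was not tested. Pathway genes called numbered 2 to 5 (HOXA9 OFF against control) and 3 to 11 (CAF-1 OFF against HOXA9 OFF) without 1 library, beside 4 and 8 with all, 2 and 2 at the stricter cutoffs, and 9 and 14 with no fold minimum. Calls over all genes in CAF-1 OFF against control numbered 4, beside 0 to 10 without 1 library (0 without CAF-1 OFF replicate 2 or control replicate 1, 1 without control replicate 2), 2 with the replicate block, 0 at the stricter cutoffs, 378 with no filter, 243 by the edgeR exact test and 192 by DESeq2.

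Replicate numbers are shared by the groups, and nothing states that they pair the libraries. Same-numbered libraries deviated together for control and HOXA9 OFF (correlation 0.456), and not for CAF-1 OFF and control (-0.178) or CAF-1 OFF and HOXA9 OFF (0.0329). With the replicate block, 0, 3 and 2 of the 10 genes were called in the 3 comparisons (CAF-1 OFF with control, HOXA9 OFF with control, and the direct one), the third gene in HOXA9 OFF against control being Trim28 (log2 -0.59, edgeR FDR 0.0102). The crossed block called 0 of them, and 71 genes in all, in CAF-1 OFF against control.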
